A study of Mus musculus with 56 samples.

Results

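The urea cycle and transaminase genes were taken as a fixed list of 10 enzymes: the 6 of urea synthesis (Cps1, Otc, Ass1, Asl, Arg1 and Nags), and glutamate dehydrogenase with the aspartate and alanine aminotransferases (Glud1, Got1, Gpt and Gpt2). They are 10 of the 52230 genes with a transcript in the data, and all 10 passed the filter on low counts that 11509 genes passed over all mice. They were measured by RNA sequencing of whole liver from 56 male mice of the GCKR-P446L-EMI-B6N strain, a knock-in in which residue 446 of GKRP, the protein that holds glucokinase in the nucleus (gene Gckr), is proline (P) or leucine (L). A diet rich in fat and sugar (HFHSD) was fed to all mice over 20 weeks, with 45% of energy as fat and with 10% glucose and 5% fructose to drink, and food was withdrawn briefly before the cull. The groups without further treatment were PP (n = 10), the heterozygous PL (n = 8) and LL (n = 10). The corresponding groups given a glucokinase activator (GKA, 3 mg/kg) with the diet were PP (n = 10), PL (n = 8) and LL (n = 10). All groups shared the diet, and there was no group on standard diet. The variant was carried in every tissue, so a difference between livers need not arise in the liver. The labels give no age, litter, batch or time of harvest. PP mouse 7, which the authors removed, entered no comparison, which left 9 PP mice without GKA and 55 mice in all.

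The urea cycle turns ammonia and the nitrogen of aspartate into urea for excretion, and in the body it runs complete only in the liver, mostly in hepatocytes near the portal vein. Carbamoyl phosphate synthetase (Cps1) fixes ammonia in mitochondria, ornithine transcarbamylase (Otc) makes citrulline, argininosuccinate synthetase (Ass1) adds aspartate, argininosuccinate lyase (Asl) releases arginine, and arginase (Arg1) splits arginine into urea and ornithine. N-acetylglutamate synthase (Nags) makes the obligatory activator of Cps1. The aminotransferases move amino groups onto oxoglutarate or oxaloacetate, and glutamate dehydrogenase (Glud1) frees ammonia from glutamate. The genes of this pathway are known to respond to glucagon, glucocorticoids and protein intake.

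Total reads were between 5189852 and 8093368 per mouse (median 6555851). Every liver carried hepatocyte RNA, with albumin (Alb) at 52137 CPM or more, where CPM are read counts per mega reads after scaling by the trimmed mean of M values (TMM). The marker sums that follow, here and by group below, were scaled by total reads alone, without TMM. The 5 skeletal muscle markers summed to at most 0.75 CPM per liver, the 6 bile duct markers to at most 108 CPM (Krt19 to at most 3.09) and the 6 pancreas markers to at most 47.7 CPM. The 5 adipose markers summed to 731 to 4588 CPM, nearly all of it Car3, which hepatocytes express too, with Adipoq at 0 in every liver. Gckr mRNA was at 117 CPM or more in every liver, and residue 446 itself cannot be read from gene counts. The chi-square of any pair of livers in a group was 11.3 or more per degree of freedom, far above the sampling noise of 1 library.

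The members were between 19.2 and 3895 CPM in single livers. To rank the enzymes, TPM was used, Salmon's relative abundance of transcripts corrected for their length. Median TPM over the 55 livers was 849.9 for Ass1, 455 for Arg1, 234 for Cps1, 212 for Glud1 and 159 for Asl. It was 89.1 for Otc, 81.7 for Gpt, 58.4 for Gpt2, 50.6 for Got1 and 11.9 for Nags. Ass1 stood above Arg1, Arg1 above Cps1 and Got1 above Nags in 55 of 55 livers. These orders thus held within every liver, though the ranges over the livers overlapped. Cps1 was above Glud1 in 33 livers, Glud1 above Asl in 34, Otc above Gpt in 33 and Gpt2 above Got1 in 34 of 55, so by TPM the order of these neighbours changed between livers. By CPM per kilobase of the main transcript they were further apart, with Cps1 above Glud1 in 52 livers, Glud1 above Asl in 55, Otc above Gpt in 55 and Gpt2 above Got1 in 39 of 55. Asl was above Otc in 46 livers by TPM, but by CPM per kilobase Otc was above Asl in 53 (median 139 for Otc and 100.3 for Asl).

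By position (GRCm39, GENCODE vM39), Cps1 lies on chromosome 1 (67161988 to 67270418), Ass1 on chromosome 2 (31352181 to 31410862), Asl on chromosome 5 (130040099 to 130058088) and Gpt2 on chromosome 8 (86218810 to 86255577). Arg1 lies on chromosome 10 (24791118 to 24803817), Nags on chromosome 11 (102036339 to 102040303), Glud1 on chromosome 14 (34032583 to 34067642) and Gpt on chromosome 15 (76579616 to 76583890). Got1 lies on chromosome 19 (43488188 to 43513674) and Otc on chromosome X (10118503 to 10187265). Exons of Asl, Arg1, Nags and Gpt overlap a non-coding RNA on the opposite strand, and those of Glud1 overlap Shld2 and the processed pseudogene Gm3219, so reads of these 5 genes may be shared. The mitochondrial alanine aminotransferase (Gpt2) and the cytosolic enzyme (Gpt) are separate genes.

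Promoters of 6 members (Otc, Ass1, Nags, Glud1, Got1 and Gpt2) were matched in RefSeq (GRCm38.p6), each as 300 bases, from 250 before to 50 after the start of the gene. Those of Ass1 and Got1 are shown since these genes moved together most closely over the livers, that of Otc as a further urea cycle gene that moved with them, and that of Nags as the member nearest to a genotype difference. Capitals mark matches, on either strand, to any of 8 motifs: the TATA box (TATAAA), the CCAAT box (CCAAT), the GC box (GGGCGG), the cAMP response element half-site (TGACG), the glucocorticoid response element half-site (AGAACA), the E-box (CACGTG), the C/EBP core (TTGCNNAA) and the D-box (TTANNTAA). The Ass1 window is chr2:31470020-31470319 (+), that of Got1 chr19:43524556-43524855 (-), that of Otc chrX:10252055-10252354 (+) and that of Nags chr11:102145263-102145562 (+).
Ass1: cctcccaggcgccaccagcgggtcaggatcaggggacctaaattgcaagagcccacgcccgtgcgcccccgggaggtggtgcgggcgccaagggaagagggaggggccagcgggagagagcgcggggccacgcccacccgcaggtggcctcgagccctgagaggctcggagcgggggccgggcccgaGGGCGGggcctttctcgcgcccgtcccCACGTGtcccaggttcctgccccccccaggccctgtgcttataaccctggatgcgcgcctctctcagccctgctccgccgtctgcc
Got1: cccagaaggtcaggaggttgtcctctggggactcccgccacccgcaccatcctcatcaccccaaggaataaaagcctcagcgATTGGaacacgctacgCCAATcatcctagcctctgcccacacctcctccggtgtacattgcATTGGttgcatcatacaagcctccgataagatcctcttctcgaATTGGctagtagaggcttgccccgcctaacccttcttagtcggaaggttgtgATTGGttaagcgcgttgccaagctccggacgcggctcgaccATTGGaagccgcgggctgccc
Otc: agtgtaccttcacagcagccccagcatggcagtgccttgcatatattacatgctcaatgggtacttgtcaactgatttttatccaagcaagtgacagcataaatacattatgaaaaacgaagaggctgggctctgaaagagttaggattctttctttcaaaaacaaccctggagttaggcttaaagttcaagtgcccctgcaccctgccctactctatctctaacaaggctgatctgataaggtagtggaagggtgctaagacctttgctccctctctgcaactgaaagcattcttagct
Nags: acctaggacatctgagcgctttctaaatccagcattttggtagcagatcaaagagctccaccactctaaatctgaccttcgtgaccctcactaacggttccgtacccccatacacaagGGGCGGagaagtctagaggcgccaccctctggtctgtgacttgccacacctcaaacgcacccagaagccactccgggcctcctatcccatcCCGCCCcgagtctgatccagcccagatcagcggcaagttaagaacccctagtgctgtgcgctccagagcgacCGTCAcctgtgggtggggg
Ass1 held 1 GC box, at -63 from the start, and 1 E-box, at -36. Got1 held 6 CCAAT box matches, and Otc held none of the 8 motifs. Nags held 2 GC boxes and 1 cAMP half-site, 32 bases after the start. The GC content was 74% for Ass1, 57.3% for Got1, 44.3% for Otc and 57.7% for Nags, beside 53.8% over the 32851 promoters in the table. Over the 6 members, the GC box was found in 4 (35.7% of all promoters), the CCAAT box in 1 (37.4%), the cAMP half-site in 1 (20.8%) and the E-box in 1 (7.15%). The TATA box (13.6% of all promoters), the glucocorticoid half-site (19%), the C/EBP core (10.8%) and the D-box (6%) were found in 0 of 6. By their letters, none of the 8 motifs holds another. Ass1 and Got1 shared no motif of the 8.

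To ask whether the variant altered the members, LL was compared with PP. In whole liver, fewer hepatocytes and less RNA per hepatocyte cannot be told apart. No member passed the test in any comparison: with edgeR's quasi-likelihood test, 0 of 10 had an adjusted p below 0.05 over all genes, whether by LL genotype without GKA (0.104% of 10537 genes passed) or with GKA (0.239% of 10460). Over both treatments, with GKA as a covariate, 0 of 10 passed as well (3.21% of 11193 genes). By unadjusted p below 0.05, 0 of 10 members were called without GKA (11.8% of all genes), 3 of 10 with GKA (10.4%) and 1 of 10 over both treatments (15.6%). The median log2 fold change of the members was 0.10 without GKA, -0.11 with GKA and 0.003 over both treatments, beside 0.012, 0.002 and 0.002 over all genes tested. The 3 called with GKA were Nags, Glud1 and Gpt, each lower in LL. When counts like those of PP and LL without GKA were simulated, the test called 47.5% of 200 genes altered 1.5-fold and 7.61% of 197 altered 1.3-fold. For genes in general, small differences were thus mostly missed in that comparison. The altered genes were drawn from all genes tested, so these shares do not give the power for the 10 members. The comparisons with GKA and over both treatments were not simulated.

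**Figure D1:**
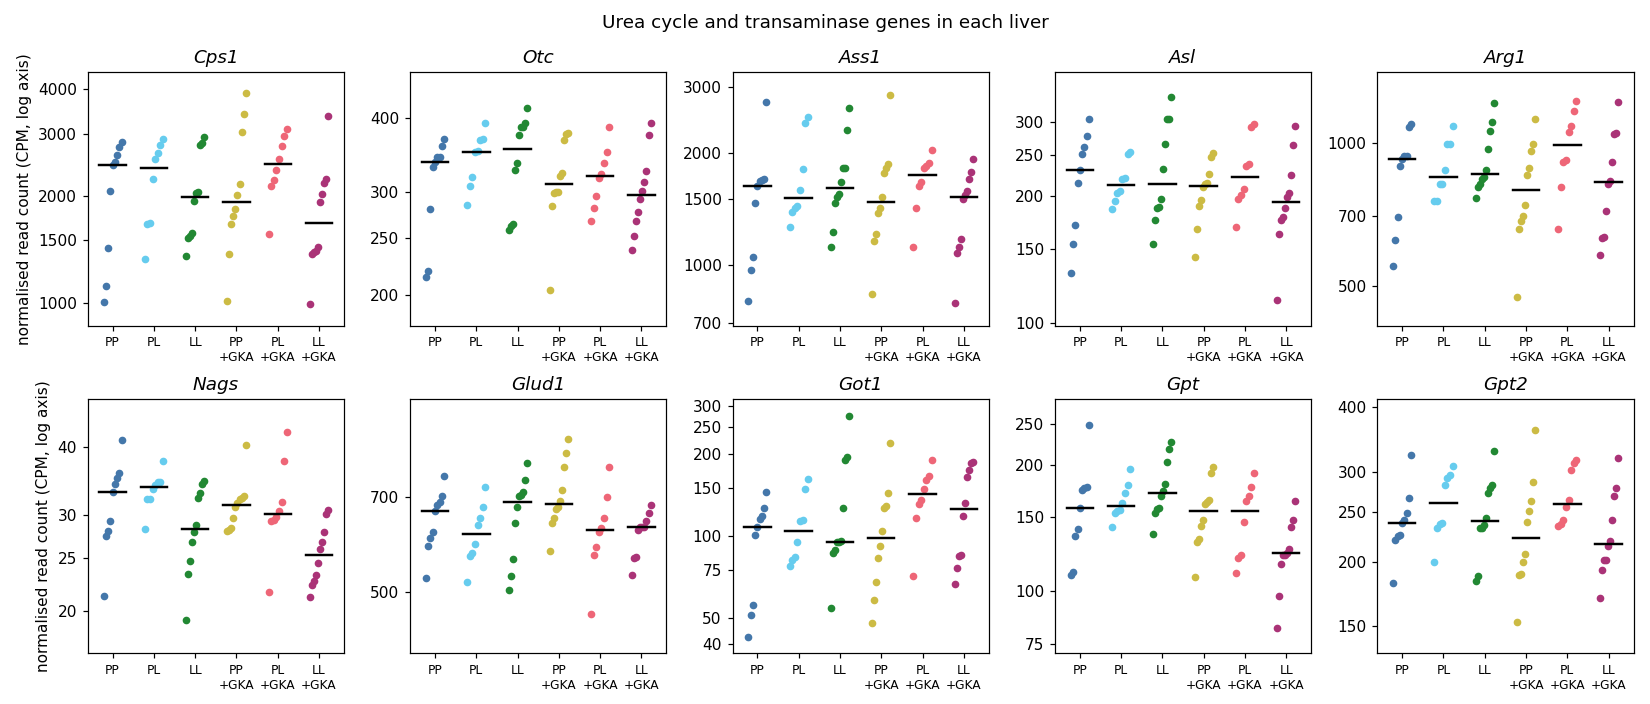
Normalised read count (CPM, log axis) of the 10 genes by group, with 1 point per mouse and a black line at the group median; PP mouse 7 is left out. The groups overlap for every gene. The medians of Nags and Gpt are lowest in LL with GKA (25.3 and 123 CPM), as are those of Cps1, Otc, Asl and Gpt2.

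Carbamoyl phosphate synthetase, the entry of ammonia into the cycle, ranged widely within each group. Cps1 was between 1006 and 2840 CPM in PP (median 2451), between 1328 and 2888 CPM in PL (median 2391) and between 1352 and 2927 CPM in LL (median 1990). With GKA it was between 1011 and 3895 CPM in PP (median 1926), 1558 and 3089 CPM in PL (median 2455) and 989 and 3353 CPM in LL (median 1681). The lowest and the highest livers of a group lay further apart than any of the group medians. LL differed from PP by a log2 fold change of -0.02 (SE 0.21, 95% confidence interval, CI, -0.45 to 0.42, edgeR adjusted p 0.991) without GKA and -0.28 (SE 0.23, CI -0.76 to 0.21, edgeR adjusted p 0.77) with GKA. Between LL and PL with GKA it was -0.42 (SE 0.19, edgeR unadjusted p 0.0409, adjusted 0.566), with 9 of 10 LL livers below the PL mean. With the clock component described below for Gpt as a covariate, edgeR's unadjusted p was 0.0626.

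Ass1, which brings the nitrogen of aspartate into the cycle, was between 802 and 2736 CPM in PP (median 1626), 1269 and 2485 CPM in PL (median 1511) and 1117 and 2635 CPM in LL (median 1612). With GKA it was between 836 and 2860 CPM in PP (median 1472), 1119 and 2029 CPM in PL (median 1747) and 792 and 1918 CPM in LL (median 1520). All 6 groups overlapped, and a single PP liver in each treatment (mouse 4 and mouse 14) stood well above the rest. LL differed from PP by a log2 fold change of 0.17 (SE 0.20, CI -0.24 to 0.58) without GKA and -0.16 (SE 0.19, CI -0.55 to 0.23) with GKA, with edgeR adjusted p 0.79 and 0.863.

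Otc, Asl and Arg1, which make citrulline, arginine and urea, gave the same picture. Otc was between 204 and 417 CPM in single livers, Asl between 113 and 343 CPM and Arg1 between 473 and 1225 CPM. By LL genotype without GKA the log2 fold changes were 0.13 (CI -0.13 to 0.39) for Otc, 0.09 (CI -0.27 to 0.44) for Asl and 0.12 (CI -0.15 to 0.38) for Arg1. With GKA they were -0.05 (CI -0.28 to 0.18), -0.04 (CI -0.32 to 0.25) and 0.07 (CI -0.25 to 0.39). EdgeR's smallest adjusted p among these 6 values was 0.728. The values without GKA turned sign with the clock component as a covariate, to -0.05 for Otc, -0.36 for Asl, which lies outside the interval above, and -0.11 for Arg1.

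Nags, the enzyme that makes the activator of Cps1, was the member nearest to a genotype difference. It was between 21.3 and 41.2 CPM in PP (median 33.1), 28.3 and 37.8 CPM in PL (median 33.8) and 19.2 and 34.7 CPM in LL (median 28.3). With GKA it was between 28 and 40.4 CPM in PP (median 31.3), 21.6 and 42.7 CPM in PL (median 30.1) and 21.2 and 30.7 CPM in LL (median 25.3). The median was lowest in LL in both treatments, and with GKA only 2 of 10 LL livers reached into the range of PP. With GKA the mean was 25.6 ± 3.31 CPM in LL and 31.4 ± 3.6 CPM in PP (SD, n = 10 each), a log2 fold change of -0.29 (SE 0.08, CI -0.47 to -0.12, edgeR unadjusted p 0.00189, adjusted 0.152). Over both treatments it was -0.23 (SE 0.07, CI -0.37 to -0.09, edgeR unadjusted p 0.00253, adjusted 0.0653), and without GKA -0.15 (SE 0.12, CI -0.40 to 0.10, edgeR adjusted p 0.664). DESeq2, the other tool, put Nags past the threshold with GKA (adjusted p 0.0399, where it called 1.18% of genes) and over both treatments (adjusted p 0.0498, where it called 4.04%). Nags in LL was also below PL, by -0.24 (SE 0.10, edgeR unadjusted p 0.0297, adjusted 0.966) without GKA and by -0.30 (SE 0.11, edgeR unadjusted p 0.0112, adjusted 0.451) with GKA. With a transcript length offset the difference from PL was 0.00 without GKA and -0.35 with GKA (edgeR unadjusted p 0.998 and 0.0524), and that from PP without GKA was -0.04. Nags had only 100 to 293 reads per liver, the fewest of the members.

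Of the enzymes that feed nitrogen to the cycle, glutamate dehydrogenase varied least. Glud1 was between 526 and 754 CPM in PP (median 665) and 504 and 789 CPM in LL (median 688). With GKA it was between 578 and 860.1 CPM in PP (median 682) and 530.4 and 680.5 CPM in LL (median 629). With GKA 7 of 10 LL livers were within the PP range and the other 3 below it, and 10 of 10 were below the PP mean. The log2 fold change with GKA was -0.20 (SE 0.08, CI -0.36 to -0.04, edgeR unadjusted p 0.0189, adjusted 0.348), and without GKA it was 0.02 (CI -0.17 to 0.22, edgeR adjusted p 0.958). The value with GKA was -0.05 with a transcript length offset (edgeR unadjusted p 0.831) and -0.14 with the clock component as a covariate (edgeR unadjusted p 0.112).

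Got1, the cytosolic aspartate aminotransferase, varied most. It was between 42.7 and 145 CPM in PP (median 108), 77.6 and 161 CPM in PL (median 104) and 54.2 and 276 CPM in LL (median 95.1). With GKA it was between 48 and 219 CPM in PP (median 98), 71.5 and 189 CPM in PL (median 142) and 66.8 and 187 CPM in LL (median 125). Over the 55 livers the highest value was 6.46 times the lowest. The fitted means were higher in LL, by 0.44 (SE 0.28, CI -0.15 to 1.03, edgeR adjusted p 0.577) without GKA and 0.26 (SE 0.25, CI -0.27 to 0.78, edgeR adjusted p 0.818) with GKA, while the median without GKA was lower in LL than in PP. The difference was within the spread of the livers.

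**Figure D2:**
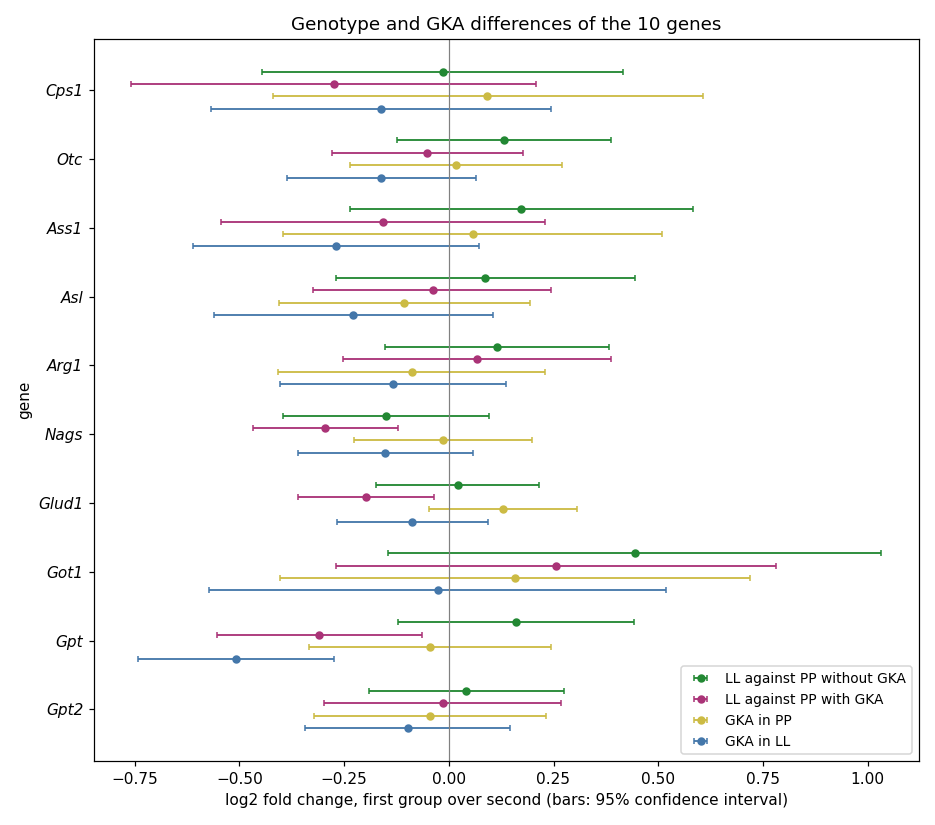
Log2 fold change of the 10 genes (points) with its 95% confidence interval (bars) from edgeR, for LL over PP in each treatment and for GKA over no GKA in PP and LL mice. The interval is narrowest for Glud1 and widest for Got1, and that of Gpt for GKA in LL (-0.74 to -0.27) lies furthest from 0.

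To ask whether GKA altered the members, mice with and without GKA were compared within a genotype. With edgeR, 0 of 10 members had an adjusted p below 0.05 in PP, PL or LL or over all genotypes (0% of 10548, 10399, 10458 and 11477 genes). By unadjusted p below 0.05, 0 of 10 were called in PP (3.56% of all genes), 0 of 10 in PL (3.18%), 1 of 10 in LL (6.15%) and 1 of 10 over all genotypes (5.28%), and the called gene was Gpt both times. In LL the fitted values of 0 of 10 members were above 0 (50.5% of all genes), with a median of -0.16 beside 0.002 for all genes. It was 1 of 10 with the clock component as a covariate and 2 of 10 with a transcript length offset. In PP 5 of 10 were above 0, and in PL 6 of 10. The livers that carry the low urea cycle values are shared between these members, so the signs are not independent.

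Gpt, the cytosolic alanine aminotransferase, was the member nearest to a GKA difference. In LL it was between 137 and 227 CPM (median 171) without GKA and between 81.9 and 164 CPM (median 123) with GKA. In PP it was between 109 and 249 CPM (median 158) without GKA and 108 and 197 CPM (median 155) with GKA, and in PL between 142 and 195 CPM (median 159) without GKA and 110.4 and 191 CPM (median 155) with GKA. In LL all 10 livers with GKA were below the mean without GKA, and 3 of 10 were within its range; in PP and PL the ranges overlapped for most livers. The mean in LL was 124 ± 23.6 CPM with GKA and 177 ± 29.4 CPM without (SD, n = 10 each), a log2 fold change of -0.51 (SE 0.11, CI -0.74 to -0.27, edgeR unadjusted p 0.000174, adjusted 0.304). It ranked 6th of 10458 genes by p. DESeq2 gave an adjusted p of 0.0166, in a comparison where it called 0.0574% of genes. In PP the log2 fold change was -0.05 (SE 0.14) and in PL -0.13 (SE 0.11). The difference between LL and PP in the response to GKA was itself tested as an interaction and was -0.47 for Gpt (SE 0.18, edgeR unadjusted p 0.0138, adjusted 0.868). For this interaction 0 of 10 members passed by adjusted p (0% of 11193 genes) and 1 of 10 by unadjusted p (5.75%). With a transcript length offset Gpt was at -0.85 for GKA in LL (edgeR adjusted p 0.663) and at -0.96 for the interaction (edgeR adjusted p 0.365). By LL genotype without GKA Gpt was at 0.16 (CI -0.12 to 0.44, edgeR adjusted p 0.691). With the offset that value was 0.59 (edgeR unadjusted p 0.0225, adjusted 0.342).

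Among mice with GKA, Gpt was also lower in LL than in PP, by -0.31 (SE 0.12, CI -0.55 to -0.07, edgeR unadjusted p 0.0154, adjusted 0.326), with 9 of 10 LL livers below the PP mean. Gpt tracked the clock component of each liver, which is a score of 16 circadian clock genes and is higher where Dbp, Tef and Per3 are higher. With this component as a covariate the difference was -0.49 and its adjusted p 0.0386 (0.134% of genes called). Of the clock genes themselves, 6 of 16 passed by LL genotype over both treatments (3.21% of all genes) and 6 of 16 among the 6 groups (1.88%). By PL genotype without GKA 2 of 13 passed (0.161%). By LL genotype with GKA alone 0 of 13 passed (0.239%), but 3 of 13 had an unadjusted p below 0.05 (10.4% of all genes). The labels give no time of harvest, so a difference of time between the groups and a difference of the clock cannot be told apart. Gpt2, its mitochondrial counterpart, was between 153 and 361 CPM in single livers. Its log2 fold change was 0.04 (CI -0.19 to 0.27) by LL genotype without GKA, -0.02 (CI -0.30 to 0.27) with GKA and -0.10 (SE 0.12) by GKA in LL.

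In the heterozygous mice no member passed either. By PL genotype 0 of 10 passed without GKA (0.161% of 10580 genes) and with GKA (0% of 10520), and by unadjusted p below 0.05 it was 0 of 10 both times (10.1% and 8.19% of all genes). Between LL and PL 0 of 10 passed without GKA (0.00942% of 10616 genes) and with GKA (0% of 10491). By unadjusted p, 1 of 10 was called without GKA (Nags, 4.58% of all genes) and 2 of 10 with GKA (Nags and Cps1, 8.6%). Asked for any difference among the 6 groups, 0 of 10 passed (1.88% of 11477 genes) and 2 of 10 had an unadjusted p below 0.05 (12.7%), namely Gpt (0.00407, edgeR adjusted 0.111) and Nags (0.00687, edgeR adjusted 0.147). For Gpt DESeq2 gave an adjusted p of 0.0485 (3.51% of genes called), and the clock component as a covariate gave 0.0171 (0.967% of genes called). DESeq2 thus called 1 of 10 members in 4 of the 13 comparisons and 0 of 10 in the other 9.

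Livers of 1 group differed widely for most members. The SD of log2 CPM within groups was 0.59 for Got1, 0.49 for Cps1, 0.42 for Ass1, 0.33 for Asl and 0.31 for Arg1. It was 0.28 for Gpt, 0.26 for Gpt2, 0.24 for Otc, 0.22 for Nags and 0.18 for Glud1. The group means spanned 0.61 for Got1, 0.52 for Gpt, 0.48 for Cps1, 0.39 for Nags and 0.19 to 0.29 for the other 6.

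Many members deviated together. For each gene the deviation of a liver from its group mean (log2 CPM) was taken, and the 45 pairs of members were correlated over the 55 livers, with p-values from 100000 permutations of the livers within their groups (two-sided), adjusted over the 45 pairs. Adjusted p was below 0.05 for 29 of 45 pairs by Pearson's r and for 28 by Spearman's rho. An r of at least 0.5 was found for 20 of 45 pairs (44.4%), beside 2.21% of all pairs of 11509 genes. Livers are separate mice, but the measures come from the same libraries and share depth and scaling.

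Ass1 and Got1, whose reactions both involve aspartate, moved together most closely. Their r was 0.896 (permutation p 1e-05, adjusted 2.5e-05) and rho 0.894 (permutation p 1e-05), where 1e-05 is the smallest p these permutations can give. Without the 2 livers furthest from the median of Ass1, r was 0.891, and within single groups it was 0.881 or more. Arg1 and Got1 had r 0.824 and rho 0.812, Asl and Arg1 had r 0.813 and rho 0.834, Ass1 and Arg1 had r 0.799 and rho 0.779, and Cps1 and Got1 had r 0.78 and rho 0.796 (permutation p 1e-05 for each). Without the 2 furthest livers these were 0.795, 0.806, 0.773 and 0.775. A set of 7 enzymes (Cps1, Otc, Ass1, Asl, Arg1, Got1 and Gpt) moved together, with r between 0.47 and 0.90 in its 21 pairs (median 0.71). These 7 were put together after their values were seen.

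The same livers were therefore high or low for most of the cycle. In PP mouse 8 the deviations on the log2 scale were -0.81 for Cps1, -0.84 for Ass1, -0.61 for Arg1 and -1.05 for Got1, and in the PP mouse 18 with GKA they were -1.02, -0.85, -0.73 and -1.02. In the PP mouse 14 with GKA they were 0.93, 0.92, 0.51 and 1.17. In the same 3 livers Glud1 was at 0.09, 0.03 and -0.11, close to its group means.

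The other 3 members had weaker correlations. Adjusted p was below 0.05 for 5 of 9 pairs with Nags, 3 of 9 with Gpt2 and 0 of 9 with Glud1. Pairs with Nags had r between -0.10 and 0.43 (median 0.31), and its highest was with Asl (r 0.433, rho 0.456, permutation p 0.00336 and 0.00172, r 0.377 without the 2 furthest livers). Pairs with Glud1 had r between -0.15 and 0.28 (median 0.02). Pairs with Gpt2 had r between -0.15 and 0.47 (median 0.06), and its highest was with Gpt (r 0.47, rho 0.49, permutation p 0.00041 and 0.00028, r 0.419 without the 2 furthest livers). Once the clock component was regressed out, r of Gpt and Gpt2 was 0.14 (permutation p adjusted over the pairs 0.355), while that of Ass1 and Got1 was 0.888.

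**Figure D3:**
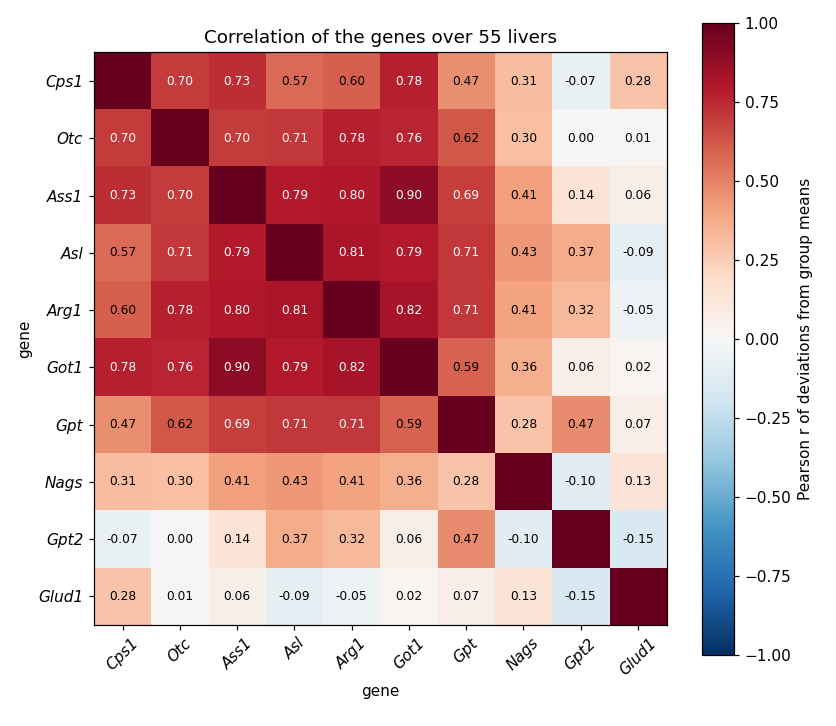
Pearson r of the deviations from group means (log2 CPM) for each pair of the 10 genes over 55 livers, with the value written in each cell. The 7 genes at the top left have r of 0.47 or more with one another, and Nags, Gpt2 and Glud1 have r of at most 0.47 with any of the other genes.

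Other quantities of the livers moved with the members. Over 100 relations (10 members with 10 quantities; same permutations and adjustment over the 100), total reads were related to 0 of 10 members by adjusted p (r between -0.19 and 0.03). The clock component was related to 6 of 10, most to Gpt2 (r 0.663, rho 0.645, permutation p 1e-05 for both, r 0.612 without the 2 furthest livers) and Gpt (r 0.586, rho 0.65, permutation p 1e-05 for both, r 0.591 without them). Glud1 had the opposite sign (r -0.446, rho -0.473, permutation p 0.00075 and 0.00056, r -0.375 without the 2 furthest livers), and Cps1 had an r of 0.04 (permutation p 0.826).

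Summed markers of other liver cells were lower where the urea cycle was higher. The summed CPM of 9 stellate cell markers (collagens, Dcn, Lrat and others) was related to 8 of 10 members by adjusted p, and 9 of 10 had a negative r. It was strongest for Otc (r -0.657, rho -0.632, permutation p 1e-05 for both, r -0.658 without the 2 furthest livers), and Gpt2 had a positive r (0.322). For 7 endothelial markers it was 6 of 10 members (r between -0.56 and 0.08), and for 12 macrophage markers 5 of 10 (r between -0.52 and -0.04). All markers of these 3 lists were found, and none was at 0 in every liver. The stellate sum was 129 to 271 CPM in PP, 105 to 269 in PL and 93.4 to 224 in LL, and with GKA 124 to 266, 87.3 to 257 and 109 to 387. The endothelial sum was 82.8 to 181 CPM in PP, 77.8 to 168 in PL and 61.7 to 172 in LL, and with GKA 79.4 to 168, 67.1 to 199 and 72 to 213. The macrophage sum was 224 to 491 CPM in PP, 120.4 to 491 in PL and 163 to 515 in LL, and with GKA 274 to 503, 206 to 1058 and 216 to 643. Their part in the shared spread was not tested.

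Sums of markers of both ends of the lobule had mostly positive correlations with the members. The sum of 11 pericentral markers was related to 7 of 10 members (r between -0.10 and 0.62) and that of 11 periportal markers to 3 of 10 (r between 0.00 and 0.49). Single markers of these lists differed in sign. Against the mean z score of the urea cycle genes, the pericentral markers had a median r of 0.45, from -0.34 (Axin2) to 0.68 (Cyp1a2). The periportal markers had a median r of 0.22, from -0.34 (Ctsc) to 0.89 (Gls2). The sums thus do not speak for each marker. The sum of 9 hepatocyte markers was related to 0 of 10 (r between -0.25 and 0.27), and so was that of 5 blood markers (r between -0.20 and 0.15).

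The non-member genes most like the members over the 55 livers, by r of log2 CPM, included other enzymes of amino acid breakdown. For the mean z score of the 6 urea cycle genes these were Hpd (0.893), of tyrosine breakdown, Gls2 (0.888), the liver glutaminase, Gnmt (0.878), which uses S-adenosylmethionine, Nnmt (0.848), which methylates nicotinamide, and Prodh (0.843), of proline breakdown. For single members the nearest non-member gene was Gls2 for Ass1 (0.918) and for Got1 (0.808), Hpd for Otc (0.871), Etnk2 for Arg1 (0.851) and for Asl (0.794), and Serpind1 for Cps1 (0.827). It was Dcxr for Gpt (0.824), Mknk2 for Gpt2 (0.73), Zdhhc12 for Nags (0.689) and Cdh2 for Glud1 (0.682). Got1 with Ass1 (0.845) and Asl with Arg1 (0.814) had a higher r than with their nearest non-member gene. The genes named are the highest of all non-member genes by selection and are given as a description.

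**Figure D4:**
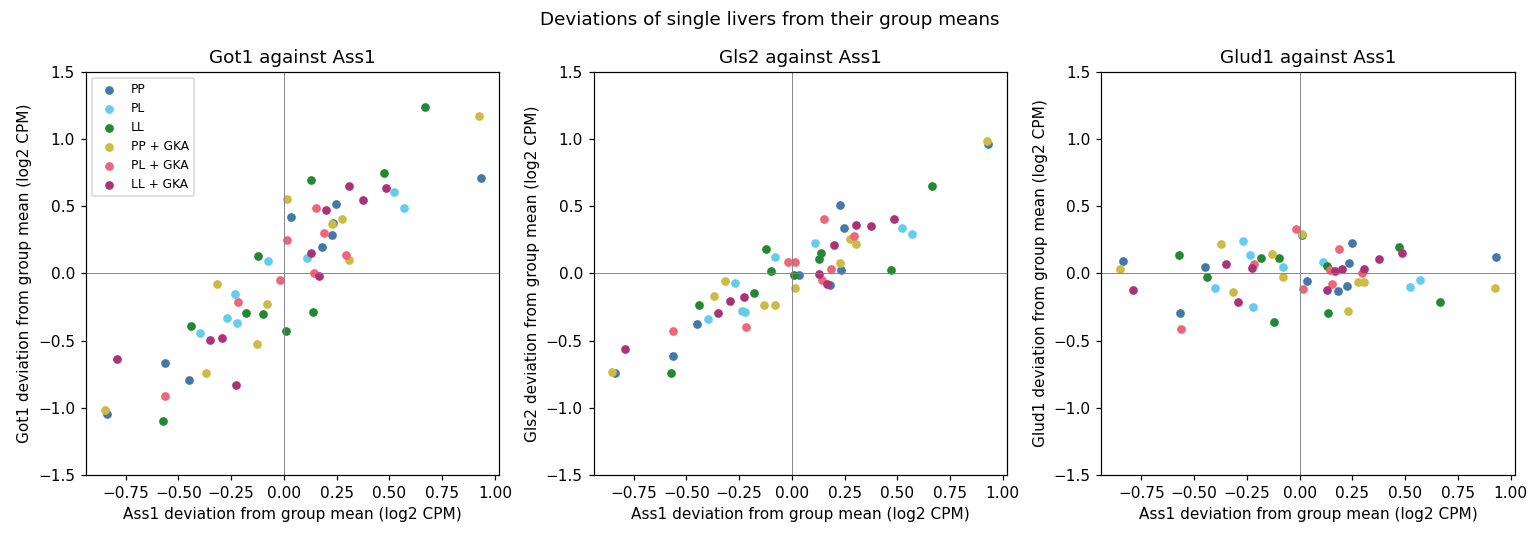
Deviation from the group mean (log2 CPM) of Got1, Gls2 and Glud1 against that of Ass1, with 1 point per liver and groups by colour. Got1 and Gls2 follow Ass1 along a line in all 6 groups, and Glud1 does not (r 0.06).

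The rest of nitrogen metabolism was read from 5 lists of related genes, in the comparison that called most genes, LL against PP over both treatments (3.21% of all genes). Of the amino acid degradation genes, 0 of 44 tested passed (median log2 fold change -0.002), and 4 had an unadjusted p below 0.05. The 2 nearest were Aspg, an asparaginase, at 0.24 (edgeR adjusted p 0.179) and Gldc, of the glycine cleavage system, at -0.31 (edgeR adjusted p 0.25). Of the other aminotransferases 0 of 10 tested passed (median 0.004), with Tat, which deaminates tyrosine, at -0.44 (edgeR adjusted p 0.271) and Kyat3 at -0.32 (edgeR adjusted p 0.293). With or without GKA alone these 2 lists had 0 calls as well. Without GKA the 2 nearest were Bckdha (0.25) and Bckdhb (0.23), of branched-chain breakdown, and Tat (-0.58) and Aadat (0.25). With GKA they were Afmid (-0.53) and Gnmt (-0.48), and Kyat3 (-0.24) and Abat (-0.22), with edgeR adjusted p of 0.247 or more for each of these 8. By GKA in LL 0 of 44 amino acid degradation genes passed (smallest edgeR adjusted p 0.569), but 11 of 44 had an unadjusted p below 0.05 (25%, beside 6.15% of all genes), all 11 lower with GKA, and the median was -0.13 beside 0.002. By the same count it was 3 of 10 ammonia and glutamine genes (30%), 4 of 19 regulators (21.1%), 1 of 10 other aminotransferases (10%) and 0 of 14 carriers. Many of the amino acid degradation genes moved together with the urea cycle over the livers, as given below, so their values are not independent. For the interaction of GKA with LL genotype 7 of the 44 amino acid degradation genes had an unadjusted p below 0.05, beside 5.75% of all genes, and the median was -0.21.

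Of the carriers, which move amino acids across membranes, 2 of 14 tested passed over both treatments (median 0.08). Slc25a22, a mitochondrial glutamate carrier, was higher in LL by 0.25 (SE 0.07, edgeR adjusted p 0.0491), with a mean of 114 CPM in LL and 102 CPM in PP without GKA and 127 and 99.9 CPM with GKA. Slc1a4, a neutral amino acid transporter, was lower by -0.67 (SE 0.18, edgeR adjusted p 0.0313), at 4.05 CPM in LL and 5.99 CPM in PP without GKA and 4.03 and 6.97 CPM with GKA. Slc38a3, a glutamine transporter, differed among the 6 groups (edgeR adjusted p 0.0342), with the highest means in PL (1209 CPM, and 1354 CPM with GKA) and the lowest in PP (867 CPM and 915 CPM). In that test Slc1a4 had an edgeR adjusted p of 0.0488. In LL against PP without GKA Slc3a2 was at 0.21 and Slc38a3 at 0.32, with edgeR adjusted p 0.338 and 0.406. With GKA Slc1a4 was at -0.78 and Slc25a22 at 0.35, with edgeR adjusted p 0.124 and 0.187.

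Of the list of ammonia and glutamine genes, 1 of 10 tested passed over both treatments (median -0.002). This was Nat8, an N-acetyltransferase of cysteine conjugates, which acts on neither ammonia nor glutamine. No other gene of the list passed. Nat8 was lower in LL by -0.57 (SE 0.14, edgeR adjusted p 0.0129), at 6.11 CPM in LL and 9.47 CPM in PP without GKA. With GKA it was at 5.87 and 8.29 CPM. It was at -0.63 (edgeR adjusted p 0.22) without GKA and -0.50 (edgeR adjusted p 0.236) with GKA taken alone. Ddah1, which breaks down methylated arginine, was at 0.64 (edgeR adjusted p 0.151) without GKA, and Sirt5, a mitochondrial deacylase, at 0.35 (edgeR adjusted p 0.147) with GKA.

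Of the list of regulators, 4 of 20 tested passed over both treatments (3.21% of all genes), all higher in LL, while the median of the list was -0.01. The list also holds G6pc1, which is an enzyme of glucose output and not a regulator of the cycle. The 3 with the smallest p were Nr1h4, the bile acid receptor FXR (0.41, SE 0.07, edgeR adjusted p 0.00048), G6pc1, glucose-6-phosphatase, a target of the same hormones (0.99, SE 0.20, edgeR adjusted p 0.00268), and Prox1, a repressor of several hepatic genes (0.51, SE 0.12, edgeR adjusted p 0.0101). The other was Creb3l3, a factor of the fasting response (0.21, edgeR adjusted p 0.0274). Mean CPM of Nr1h4 was 66.7 in PP and 86 in LL, and 66.2 and 91.3 with GKA. Mean CPM of G6pc1 was 214 in PP, 150.3 in PL and 403 in LL, and 225, 233 and 474 with GKA. With GKA Nr1h4 (0.47, edgeR adjusted p 0.0401) and Prox1 (0.79, edgeR adjusted p 0.03) passed alone, and G6pc1 passed between LL and PL without GKA (1.42, SE 0.20, edgeR adjusted p 0.00821). Without GKA G6pc1 was at 0.92 and Nr1h4 at 0.37 by LL genotype, with edgeR adjusted p 0.112 and 0.146. Nr1h4, G6pc1 and Prox1 also differed among the 6 groups (edgeR adjusted p 0.00252, 0.00104 and 0.0313). The authors had reported G6pc and Nr1h4 as up-regulated by LL genotype on this diet, so these calls were known beforehand. Genes of these lists passed where none of the 10 members did. Since the lists were chosen with earlier results known, this contrast is a description, and the difference between the lists was not tested.

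Over the livers, by contrast, the amino acid degradation genes moved with the cycle. An r of at least 0.5 with the urea cycle mean z score was found for 25 of 44 of them (56.8%), 6 of 10 other aminotransferases (60%) and 6 of 14 carriers (42.9%), beside 4.33% of 10732 genes. It was found for 2 of 10 ammonia and glutamine genes (20%) and for 2 of 20 regulators (10%). Fah, of tyrosine breakdown, was at 0.81, Hal, of histidine breakdown, at 0.77 and Agxt, which transaminates glyoxylate, at 0.75. Slc25a15, the mitochondrial ornithine carrier, was at 0.71. Among the regulators Klf15, a factor that drives amino acid breakdown, was at 0.78 and Gcgr, the glucagon receptor, at 0.61, while Nr3c1, the glucocorticoid receptor, was at -0.24. Csad, of taurine synthesis, had the opposite sign (-0.55). These values are a description over 55 livers, and all of them share the same libraries.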

How the data were processed

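RNA of whole liver was sequenced from 56 mice. Per the labels, only RNA whose integrity number exceeded 6 was used, and the authors ran Salmon 1.4.0 with the mouse transcripts of GENCODE M26 (build GRCm39). There is 1 deposited file per mouse, with 139225 transcripts. Its estimated counts, as deposited by the authors, are not normalised. Its TPM values were scaled by the authors' run of Salmon for length and for the total of the library. Lengths and effective lengths of the transcripts are given too. Mice were not pooled.

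Transcripts were matched by identifier to GENCODE vM39 (137570, 98.8%, with 99.8% to 99.9% of a mouse's reads). The estimated counts of a gene's transcripts were added and rounded. Depth was 5189852 to 8093368 reads per mouse. Groups came from the labels, and PP mouse 7 was left out as by the authors. The whole table was tested in edgeR 4.0.16 by quasi-likelihood (R 4.3.3, TMM, filterByExpr, 2-group fits, Benjamini-Hochberg adjustment, threshold 0.05). Passing means the adjusted p alone. The study's further fold threshold (at least 1.3 or at most 0.7) was not applied, and the calls of Nags by DESeq2, of Gpt with the clock covariate by LL genotype with GKA and of Slc25a22 and Creb3l3 fall short of it. The fits over both treatments and over all genotypes carried the other factor as a covariate. Log2 CPM had a prior count of 2. Confidence intervals (95%) used the SE and degrees of freedom of the fit. Correlations were computed with SciPy 1.17.1 on deviations from group means. The script was tested on simulated data.

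Mice are the replicates. The labels do not name litters or cages, so p-values measure the spread between these mice. Mouse numbers run from 1 to 56 and pair no samples.

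The members and the lists (5 lists of nitrogen metabolism, marker lists and the clock list) were chosen with earlier results of these data known. Besides the members, the genes named were, from each of the 5 lists, up to 3 that passed with the smallest p in a comparison, or, where none passed, the 2 with the smallest unadjusted p by LL genotype. The non-member genes most alike by Pearson's r were named too (5 for the urea cycle mean z score, 1 for each member, skipping names without an established symbol). The genes named for their r with the urea cycle in the last paragraph were chosen after their values were seen. As clock component, the leading principal component over 16 clock genes was taken (61.1% of their variance).

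Alternatives were DESeq2 1.42.0, its size factors in edgeR, no filter on low counts, a transcript length offset, the clock component as a covariate, PP mouse 7 kept, all 6 groups in 1 fit and each mouse left out. Leaving out mice for GKA in LL, and the alternatives for the correlations, were added after seeing the data.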

Additional observations from a re-analysis of the deposited data

Results flagged for a closer look

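In 5 of 60 sets of values (10 genes in 6 groups), the highest liver stood apart from the rest of its group by more than the 95% critical value of Dixon's test. Among independent sets of normal values chance alone flags about 1 set in 20. These sets share livers and were taken as CPM without logs, so that rate is no benchmark for them. Ass1 was 2736 CPM in PP mouse 4, with the next liver at 1702 CPM, and 2860 CPM in PP mouse 14 with GKA, with the next at 1863 CPM. Gpt was 249 CPM in PP mouse 4, with the next at 177 CPM. Cps1 was 3353 CPM in LL mouse 50 with GKA, with the next at 2228 CPM. Nags was 40.4 CPM in PP mouse 12 with GKA, with the next at 32.5 CPM. Without any single mouse of these groups, Nags kept an unadjusted edgeR p below 0.05 in 20 of 20 fits of LL against PP with GKA (highest p 0.00424).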

How the results depend on the processing

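With each mouse left out in turn, between 0 and 0 members had an edgeR adjusted p below 0.05 by LL genotype without GKA, by LL genotype with GKA and by GKA in LL. Gpt kept an unadjusted p below 0.05 in 20 of 20 such fits for GKA in LL and in 20 of 20 for LL against PP with GKA, as Glud1 did in 20 of 20 of the latter. The number of members called was 0 in the main fits and 1 with DESeq2 for LL against PP with GKA, for GKA in LL, for any difference among the 6 groups and for LL against PP over both treatments; it was 1 with the clock component as a covariate for LL against PP with GKA and for any difference among the 6 groups. The cause was not tested. No other alternative called a member. Log2 fold changes turned sign in 56 of 750 values over 12 comparisons, none of them called in either fit. For LL against PP and for GKA over all genotypes these were, with the clock component as a covariate, without GKA, Otc (-0.046), Asl (-0.36), Arg1 (-0.11), Gpt (-0.065) and Gpt2 (-0.14); with GKA, Arg1 (-0.11); over both treatments, Otc (-0.049), Asl (-0.22), Arg1 (-0.11) and Gpt2 (-0.19); and for GKA over all genotypes, Arg1 (0.009), Glud1 (-0.006) and Gpt2 (0.009). With a transcript length offset they were, without GKA, Ass1 (-0.083) and Glud1 (-0.33); with GKA, Ass1 (0.011) and Asl (0.034); over both treatments, Gpt (0.09); and for GKA over all genotypes, Arg1 (0.007). With PP mouse 7 kept it was Cps1 without GKA (0.01). The number of correlated pairs of members was 29, and 30 with the clock component regressed out, 36 on log2 (TPM + 1) and 31 with PP mouse 7 kept. On log2 (TPM + 1), r of Ass1 and Got1 was 0.574 in place of 0.896. No paired analysis was possible because the groups share no mouse numbers. Nags, with 100 to 293 reads per liver, and Got1, with 265 to 1719, are the members that depth limits most, and TPM of Asl, Gpt and Nags depends on how reads were split between transcripts.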

Other observations

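PP mouse 7, which entered no comparison, had 1670 CPM of Cps1, 241 CPM of Otc, 1657 CPM of Ass1, 181 CPM of Asl and 645 CPM of Arg1. It had 24.1 CPM of Nags, 491 CPM of Glud1, 125 CPM of Got1, 101 CPM of Gpt and 269 CPM of Gpt2. Gpt and Glud1 were below all 9 other PP livers without GKA (lowest 109 and 526 CPM), while the other 8 genes lay within their range.

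Reads of Asl, Gpt and Nags were split unevenly between transcripts from liver to liver. The share of the main transcript was 18.3% to 86.6% for Asl-202, 24.7% to 92.7% for Gpt-201 and 0% to 96.8% for Nags-201. In Cps1 a single transcript held all reads, and in Arg1 the main transcript held 99.7 ± 0.164% (SD, n = 55).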
